A study of Sus scrofa with 61 samples.

Results

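MAGEL2, NDN, PLAGL1, PEG3, DLK1, PEG10, SGCE, MEST, DIRAS3 and NNAT are 10 imprinted genes, among 14606 distinct names on the array, that were measured with 29 probes in the longissimus muscle of 61 male pig fetuses. A probe was counted for a gene where the array's own name, or the symbol in the study's additional probe lists, was the gene's symbol, which gave 28 probes. NDN had no probe by that rule and was found under the array's older name NECD through its RefSeq accession, which gave the 29th. The study's lists hold probes that it called as differing in these same arrays. The main MAGEL2 probe, the main DLK1 probe and another DLK1 probe were named by those lists alone. Such probes became members because they were called, which raises counts of called member probes against the shares over all probes. All 29 were kept by the filter on dim probes, which kept 42436 of 60305 probes in all. Purebreds of the Large White breed are called LW and those of the Meishan breed MS (LWLW and MSMS in the labels). In the cross called MSLW the boar was Meishan and the sow Large White, and in LWMS it was the reverse. At day 90 of gestation each genotype had 8 fetuses, and at day 110 the number was 9 for LW, 7 for MS, 5 for MSLW and 8 for LWMS. Sows were inseminated with mixed semen of both breeds, so a litter could hold purebred and crossbred fetuses. The sow of each fetus was not in the labels, so littermates count here as separate fetuses and p-values do not allow for the litter.

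Most genes are read from both parental copies, whereas an imprinted gene is read mainly from the copy of a given parent, which carries marks set in the germ line. All 10 genes are known from human or mouse to be read mainly from the father's copy, and several of them act on fetal growth and on muscle and fat cell differentiation. Reciprocal crosses carry the same pair of breed genomes and differ in which parent gave which, so a comparison of MSLW with LWMS asks whether the parent of origin goes with a difference in level. That comparison also swaps the breed of the sow, and with it the uterus, the mitochondria and, in males, the X and Y chromosomes. The signal is the sum of both copies, so which copy was read was not measured.

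Levels are given as normalized log2 signal, in which a difference of 1 is a 2-fold change. The main probe of a gene is its brightest kept probe, and 8 of the genes have further probes. The probes below are printed because the results turn on them or because their sequences show which probes are not separate measurements. The first pair gave the second reading of MAGEL2 and of PLAGL1. In the DLK1 pair the capitals mark 42 bases that both probes hold, so their values are not separate evidence. In the third DLK1 probe the capitals mark 20 bases equal to the reverse primer of the study's PCR assay for DLK1, so this probe has the letters of the strand opposite to the transcript. In the PEG10 pair the capitals mark 24 bases that are the reverse complement of each other, so these probes read opposite strands. A further DLK1 probe, not printed, holds the same 60 bases as A_72_P035731. The SGCE probes O10377 and A_72_P136566, also not printed, share 55 bases. Counts of probes below include such repeated readings.
MAGEL2 A_72_P493343: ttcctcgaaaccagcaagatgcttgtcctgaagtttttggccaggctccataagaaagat
PLAGL1 O12865: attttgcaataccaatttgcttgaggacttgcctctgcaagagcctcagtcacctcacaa
DLK1 A_72_P441289: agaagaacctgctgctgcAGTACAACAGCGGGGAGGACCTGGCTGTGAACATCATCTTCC
DLK1 A_72_P035731: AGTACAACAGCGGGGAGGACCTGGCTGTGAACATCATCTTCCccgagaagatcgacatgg
DLK1 O6936: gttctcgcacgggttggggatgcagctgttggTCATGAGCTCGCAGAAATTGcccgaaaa
PEG10 A_72_P564724: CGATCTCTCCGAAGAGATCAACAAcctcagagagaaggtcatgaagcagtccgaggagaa
PEG10 O7562: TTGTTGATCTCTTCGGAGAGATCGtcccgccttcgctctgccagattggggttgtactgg

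The number of probes that the scanner software called well above background ran from 34346 to 45683 per array. The 8 slides each mixed 6 to 8 of the groups. The markers of muscle fibre were bright, with ACTA1, skeletal actin, at up to 18.84 and CKM, muscle creatine kinase, at up to 18.30 on the log2 signal scale. No gene of 8 marker lists (muscle fibre, satellite cell and myoblast, fibroblast, adipocyte, endothelium, leukocyte, erythroid, nerve and Schwann cell) passed the test between the reciprocal crosses at either age (limma, with 5 of 45 genes at an unadjusted p under 0.05 at day 90 and 7 at day 110). In whole muscle, fewer cells of a type and less RNA per cell cannot be told apart.

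The reciprocal crosses differed in MAGEL2, NDN, PLAGL1 and DIRAS3, and the other 6 genes did not pass the test at either age. At day 90, 3 of the 29 probes were higher in MSLW than in LWMS and none was lower, against 0.500% of all probes called in either direction and 0.351% called higher (limma, adjusted p under 0.01). These were both MAGEL2 probes and the NDN probe. At day 110, 3 probes were higher and 2 were lower, against 0.917% of all probes called, of which 0.547% higher and 0.370% lower. The higher ones were both MAGEL2 probes and a DIRAS3 probe, and the lower ones were both PLAGL1 probes. The median difference over the 29 probes was 0.23 at day 90 and -0.05 at day 110, against medians near 0 over all probes (0.0086 and 0.0041).

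MAGEL2 codes for a protein of the MAGE family that works with ubiquitin ligases. At day 90 its main probe read from 9.94 to 10.32 in MSLW (median 10.19) and from 8.36 to 9.22 in LWMS (median 8.56). MS fetuses read from 9.89 to 10.36 (median 10.096) and LW fetuses from 8.41 to 9.29 (median 8.92). The MSLW fetuses thus lay with MS and the LWMS fetuses with LW, and the pairs of groups did not overlap. MSLW was 2.92-fold above LWMS (log2 difference 1.54 ± 0.126 SE, limma adjusted p = 3.94e-14, n = 8 and 8).

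At day 110 MAGEL2 was lower in every genotype, and the order of the crosses was the same. The 5 MSLW fetuses read 8.14, 8.44, 8.81, 8.42 and 8.54, and the 8 LWMS fetuses read from 6.51 to 7.31 (median 6.95). LW fetuses read from 6.76 to 7.81 (median 7.37) and MS fetuses from 7.65 to 8.21 (median 7.99). Every MSLW fetus lay above every LWMS and LW fetus, while the lowest MS and highest LW fetuses overlapped. The difference between the crosses was 1.56 ± 0.143 (adjusted p = 6.50e-12 in limma) and had not changed with age by more than its error (0.01 ± 0.191). On single slides MSLW was above LWMS on 8 of 8 slides at day 90 (0.95 to 1.89) and on 5 of 5 at day 110 (1.07 to 1.94).

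The second MAGEL2 probe, whose sequence heads the list above, gave a larger difference in the same direction. It read from 9.12 to 9.45 in MSLW and from 5.57 to 7.003 in LWMS at day 90, with no overlap. At day 110 its 5 MSLW values were 7.64, 7.26, 7.79, 7.55 and 7.29, against 3.21 to 5.41 in LWMS, where 4 of 8 arrays were well above background. The log2 differences were 2.88 ± 0.221 at day 90 and 3.16 ± 0.252 at day 110. They were called in every alternative that kept the probe, but the one at day 110 was 2.03 with the median spot signal, 2.02 with the deposited values and 1.51 with the normexp correction, so its size depends on which signal was used.

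NDN codes for necdin, also of the MAGE family, and is the neighbour of MAGEL2 in the RefSeq gene order of the pig. At day 90 it read from 10.84 to 11.53 in MSLW (median 11.14) and from 10.31 to 10.93 in LWMS (median 10.74), and the ranges overlapped slightly. The log2 difference of 0.46 ± 0.098 passed the test (limma adjusted p = 0.00386), and MSLW was higher on 8 of 8 slides (0.20 to 0.62). The call was lost in 5 of the alternatives, where the adjusted p lay between 0.0186 and 0.0255, so it sits at the threshold. At day 110 the group means of NDN lay between 9.60 and 9.82 and the crosses differed by 0.02 ± 0.112.

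PLAGL1, a zinc finger transcription factor that restrains cell division, passed the test between the crosses at day 110 and missed it at day 90. At day 90 it read from 11.94 to 12.57 in MSLW and from 11.79 to 12.19 in LWMS, which overlapped (0.26 ± 0.09997, adjusted p = 0.301). At day 110 the 5 MSLW fetuses read 11.29, 11.26, 11.25, 11.09 and 11.07, and LWMS fetuses read from 11.58 to 12.33 (median 12.03). LW fetuses lay from 11.92 to 12.45 (median 12.27) and MS fetuses from 10.85 to 11.47 (median 11.07). No fetus of a MS boar reached the lowest fetus of a LW boar. MSLW was 1.73-fold below LWMS (-0.79 ± 0.114, limma adjusted p = 3.31e-06), on 5 of 5 slides (-1.04 to -0.80).

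The change of this difference with age was -1.06 ± 0.152 for PLAGL1 (limma adjusted p = 8.60e-05). Both PLAGL1 probes were called for that change, and no other probe of the 10 genes was, against 0.0330% of all probes, 0.0236% in the same direction. The second PLAGL1 probe, printed above, gave -0.98 ± 0.150 between the crosses at day 110 and -1.19 for the change.

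DIRAS3, a small GTPase of the Ras family, was dim. At day 110 it read 4.23, 4.83, 5.11, 4.10 and 4.16 in the 5 MSLW fetuses, of which 4 were well above background, and from 2.16 to 4.01 in LWMS, where it was well above background on none of 8 arrays. The measured log2 difference of 1.26 passed the test (limma adjusted p = 0.00297) but rests on LWMS readings below background, which give only a bound. With those readings raised to the lowest detectable signal, MSLW was 1.31-fold above LWMS in the signal used here. This is no minimum over other signals, since the alternatives of signal given below had smaller differences. The 1.31-fold value was not tested, and its MSLW mean includes a reading not well above background. The second DIRAS3 probe was not called (adjusted p = 0.0978 in limma), was well above background on 2 of the 5 MSLW arrays and gave no bound above 1. The call of the main probe was lost with the median spot signal (0.37, adjusted p = 0.155), the deposited values (0.34, 0.194), the normexp correction (0.24, 0.196), and without MSLW replicate 2 (adjusted p = 0.0158) or replicate 3 (0.0294). At day 90 its difference was 0.78 ± 0.234 (adjusted p = 0.119).

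For the remaining 6 genes no difference between the crosses passed the test. PEG10, which derives from a retrotransposon and acts in placenta growth, differed by 0.12 at day 90 (95% interval -0.31 to 0.54) and by -0.19 at day 110 (-0.68 to 0.29). For DLK1, a membrane protein related to Notch ligands that restrains fat cell formation, the main probe gave 0.44 (-0.01 to 0.89) and -0.55 (-1.06 to -0.03), with adjusted p of 0.549 and 0.294 in limma. That probe is named DLK1 by the study's lists alone and not by the array. Within groups it correlated with the other DLK1 probes at r = 0.29 to 0.57, and those correlated with each other at 0.66 to 0.97. MEST, an enzyme of the hydrolase fold, gave 0.17 (-0.06 to 0.39) and 0.22 (-0.04 to 0.48). PEG3, a zinc finger protein, gave 0.38 ± 0.113 (adjusted p = 0.109, with 7 MSLW values since 1 spot was marked non-uniform) and 0.13 ± 0.125. NNAT, neuronatin, a small membrane protein of the endoplasmic reticulum, gave -0.06 ± 0.335 and -0.35 ± 0.382.

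SGCE, epsilon-sarcoglycan of the muscle membrane complex, lies beside PEG10 in the RefSeq gene order, and its brightest probe, though named SGCE, carries an accession of PEG10. Within groups that probe correlated at r = 0.94 with the main PEG10 probe and at 0.69 with the next SGCE probe, over 61 fetuses that share slides. The next SGCE probe, chosen after its values were seen, is therefore given as well, and it differed between the crosses by 0.01 (-0.14 to 0.17) at day 90 and by -0.03 (-0.21 to 0.15) at day 110.

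**Figure D1:**
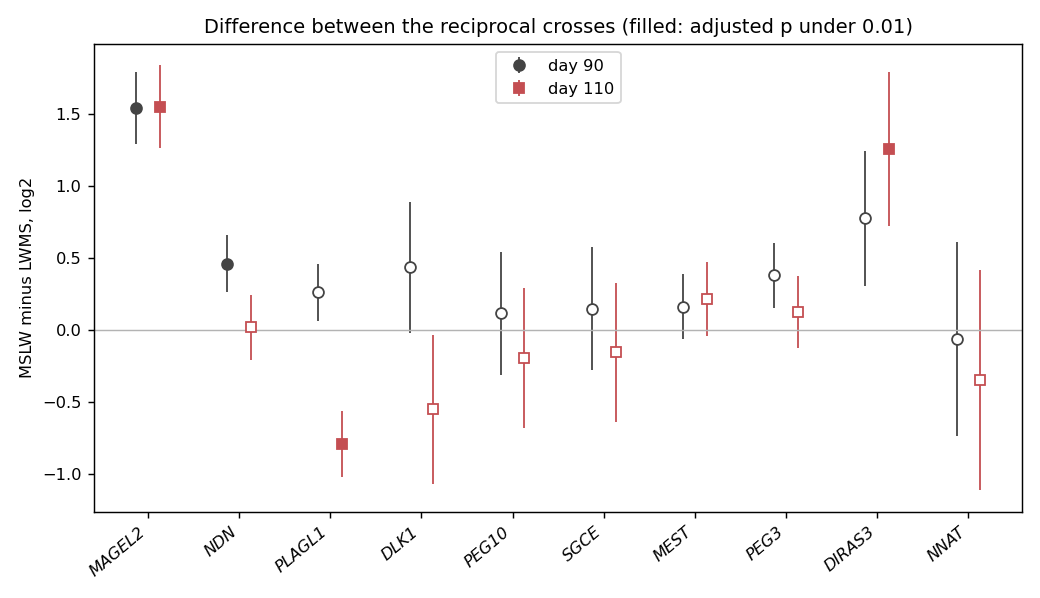
Log2 difference of MSLW minus LWMS for the main probe of each gene, with 95% intervals, at day 90 (circles) and day 110 (squares), filled where the adjusted p was under 0.01. MAGEL2 stands at 1.54 and 1.56, and PLAGL1 goes from 0.26 at day 90 to -0.79 at day 110.

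The breed of the boar was then compared with the breed of the sow held the same. MSLW minus LW gives it in LW sows and MS minus LWMS in MS sows, and these use different fetuses. At day 90, 3 probes were higher with a MS boar in LW sows (both MAGEL2 probes and NDN) and 2 in MS sows (both MAGEL2 probes), against 1.83% and 1.48% of all probes called, and 1.24% and 0.276% called higher. The NDN call in LW sows was lost in 5 alternatives, with limma adjusted p from 0.0128 to 0.0272. At day 110, 18 of 29 probes passed in LW sows and 17 in MS sows, against 4.98% and 4.30% of all probes. In each kind of sow both MAGEL2 probes were higher, against 2.41% and 1.33% of all probes. The others were lower, namely 16 in LW sows and 15 in MS sows, against 2.57% and 2.97%. The lower ones in LW sows were all 6 DLK1, all 4 PEG10, all 4 SGCE and both PLAGL1 probes. In MS sows they were 5 DLK1, 3 PEG10, 3 SGCE, 2 MEST and 2 PLAGL1 probes. The median over the 29 probes was -0.66 in LW sows and -0.47 in MS sows.

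MAGEL2 was higher with a MS boar by 1.28 ± 0.126 in LW sows and 1.48 ± 0.126 in MS sows at day 90. At day 110 the differences were 1.21 ± 0.140 and 1.02 ± 0.130. For the breed of the sow, averaged over both boars, MAGEL2 gave -0.17 ± 0.089 at day 90 (limma adjusted p = 0.237) and -0.44 ± 0.096 at day 110 (adjusted p = 0.00038), where fetuses of MS sows were lower. The MSLW mean at day 110 (8.47 ± 0.242 SD, n = 5) lay above that of purebred MS (7.94 ± 0.207 SD, n = 7), so the order was MSLW, MS, LW and LWMS.

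PLAGL1 at day 110 was lower with a MS boar by -1.03 ± 0.112 in LW sows (limma adjusted p = 1.53e-09) and by -0.89 ± 0.103 in MS sows (adjusted p = 4.74e-09). It was lower on every slide that held both groups, 5 of 5 and 7 of 7. The breed of the sow gave -0.17 ± 0.076 (adjusted p = 0.092). PLAGL1 thus passed for the boar and missed the threshold for the sow, and the difference between these effects is the difference between the crosses given above.

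DLK1, PEG10 and SGCE at day 110 were lower with a MS parent on either side. For the DLK1 probe with the 42 shared bases, LW fetuses read from 10.65 to 12.32 (median 11.96) and MS fetuses from 7.19 to 9.42 (median 8.55). LWMS fetuses read from 9.14 to 10.87 (median 9.95), and the 5 MSLW fetuses read 9.54, 10.21, 10.41, 9.21 and 9.93. Purebreds did not overlap, and the means of both crosses lay between theirs at a similar level (9.94 in LWMS and 9.86 in MSLW). The range of LWMS overlapped both purebreds, and that of MSLW overlapped MS. The boar gave -1.82 ± 0.244 in LW sows and -1.62 ± 0.226 in MS sows, the sow gave -1.64 ± 0.166, and the crosses differed by -0.08 ± 0.249. The main DLK1 probe gave -1.43 and -0.99 for the boar and -0.66 ± 0.172 for the sow. That last call (limma adjusted p = 0.00295) was lost without MSLW replicate 2 (0.0126) or replicate 3 (0.0104).

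For PEG10 at day 110, the main probe read from 13.79 to 15.74 in LW (median 15.53) and from 11.75 to 13.70 in MS (median 12.70). LWMS read from 13.37 to 14.65 (median 13.86), and the MSLW fetuses read 13.85, 13.58, 14.21, 13.27 and 13.82. The means of the crosses again lay between those of the purebreds. The lowest fetuses of both crosses overlapped MS, and the lowest LW fetus, replicate 9, lay among the crosses. The boar gave -1.60 ± 0.238 in LW sows and -1.29 ± 0.220 in MS sows, and the sow -1.25 ± 0.162. The next SGCE probe gave -0.56 ± 0.087, -0.43 ± 0.081 and -0.47 ± 0.059 for the same contrasts.

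For the PEG10 pair that reads opposite strands, the probe with the transcript's letters gave -1.67 for the boar in LW sows and -1.21 in MS sows, and both were called. Its reverse-strand partner gave -0.66, which was called, and -0.08, which was not, and the difference between the probes was not tested. That partner was dimmer, with a mean of 7.05 over all arrays against 9.87.

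MEST at day 110 had means of 9.95 in LW, 9.65 in MSLW, 9.43 in LWMS and 9.12 in MS. Its boar effect was small, -0.30 ± 0.127 in LW sows and -0.31 ± 0.117 in MS sows, and neither passed for the main probe. The sow gave -0.52 ± 0.086 (limma adjusted p = 5.04e-06). NNAT gave -1.03 ± 0.374 and -0.76 ± 0.347 for the boar, and NDN and PEG3 gave between -0.18 and 0.11. Averaged over both sows, 22 probes passed for the boar at day 110, against 13.3% of all, and 19 for the sow, against 15.1%. At day 90 these counts were 3 and 1, against 5.13% and 6.49%.

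**Figure D2:**
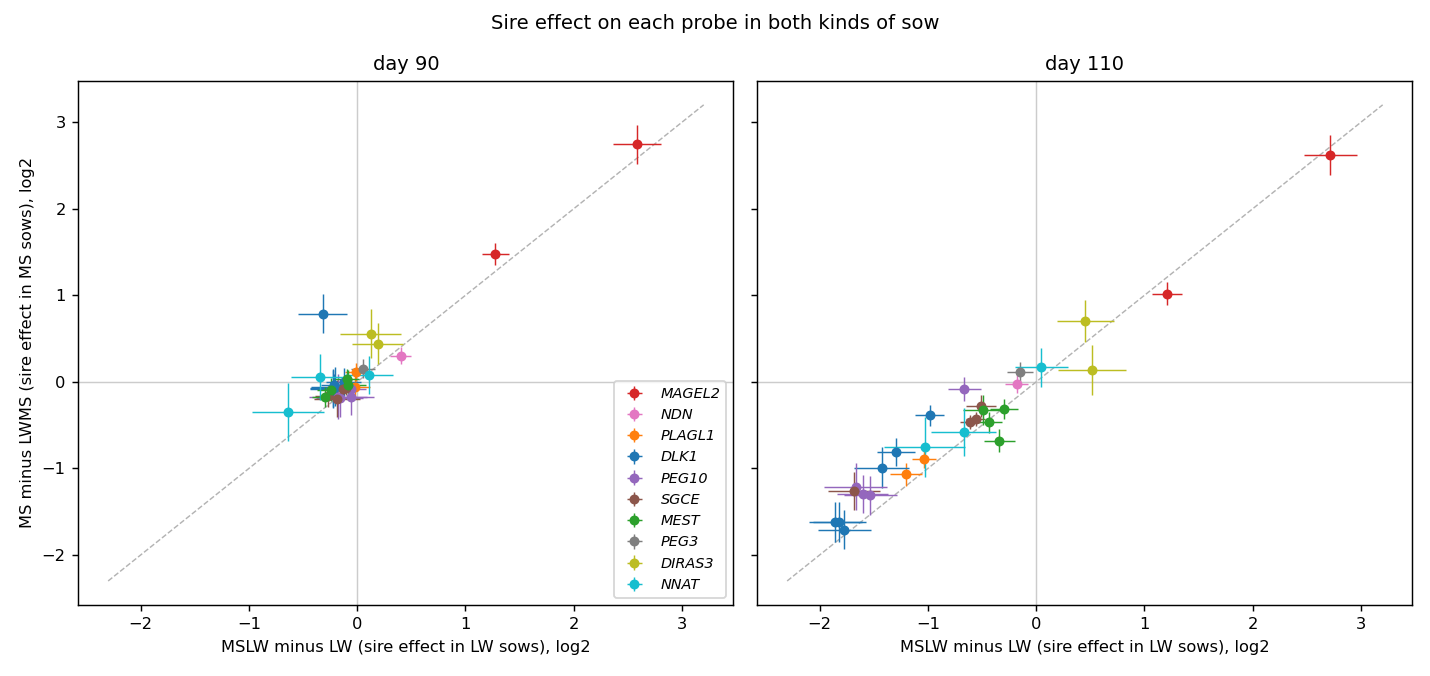
Log2 difference with a MS instead of a LW boar for each of the 29 probes, in LW sows on the horizontal axis and in MS sows on the vertical axis, with SE bars, at day 90 on the left and day 110 on the right, and a dashed line of equal values. Both MAGEL2 probes lie at the upper right at both ages, and at day 110 the DLK1, PEG10, SGCE and PLAGL1 probes spread to the lower left.

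Markers of fibroblasts also moved with the boar, the sow and the breed at day 110. Of 8 listed genes, 1 was lower with a MS boar in LW sows and 5 in MS sows (medians -0.32 and -0.42), and none was higher. With a MS sow 5 were lower and 1 was higher (median -0.50), and between the purebreds 5 were lower in MS and 1 was higher (median -0.79). The summed signal of the list, in log2, lay from 17.13 to 17.83 in LW, from 16.997 to 17.71 in MSLW, from 16.77 to 17.65 in LWMS and from 16.46 to 16.84 in MS. Their part in the lower DLK1, PEG10, SGCE and MEST signals was not tested. MAGEL2 moved the opposite way to this list for the boar and the breed. For the sow it moved the same way, since it was lower with a MS sow. The part of the list in the MAGEL2 values was not tested either.

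The purebreds were compared next. At day 90, 4 of 29 probes passed (2 higher and 2 lower in MS), against 12.8% of all probes, 6.23% higher and 6.61% lower. At day 110, 24 passed (2 higher, both of MAGEL2, and 22 lower), against 29.0%, 13.7% higher and 15.2% lower. The main PEG10 probe gave -2.70 ± 0.215, a 6.51-fold lower signal in MS, the SGCE probe with a PEG10 accession gave -2.79 ± 0.214, and the DLK1 probe with the shared bases gave -3.36 ± 0.220. MAGEL2 was 1.60-fold higher in MS (0.67 ± 0.127, limma adjusted p = 1.91e-05).

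All of the age calls were falls. From day 90 to day 110, 24 probes fell in LW and 27 in MS, and none rose. That compares with 45.3% and 56.6% of all probes called, 23.5% and 28.0% as falls. In the crosses 25 probes fell in LWMS and 28 in MSLW, against 50.9% and 44.6% of all probes called, 25.7% and 23.8% as falls. The count of each genotype includes both DIRAS3 probes, whose falls rest in part on readings below background. At day 110 the main one was well above background on 4 LW, 2 MS, 0 LWMS and 4 MSLW arrays. The second was so on 2, 1, 0 and 2, and it passed the filter only through the day 90 groups, which favours a fall. The median change over the 29 probes was -1.02 in LW and -2.42 in MS, and it was -2.01 in LWMS and -2.12 in MSLW, while the median over all probes was at most 0.04 from 0. MEST, the hydrolase, fell by 2.42 ± 0.110 in LW and by 3.02 ± 0.117 in MS on the log2 scale. NNAT fell by 2.63 ± 0.326 in LW, and NDN by 0.91 ± 0.095. PEG3 passed in MSLW (-0.45 ± 0.128, limma adjusted p = 0.00216) and, with the slide as a block, also in LW (-0.29, adjusted p = 0.00808). The call in MSLW was lost with the median signal (0.0272), the deposited values (0.0281) and normexp (0.0224). With the day 110 readings raised to the lowest detectable signal, DIRAS3 in LWMS was 2.83-fold higher at day 90 in the signal used here. The dimmest NNAT probe had no age call and ran against the other NNAT probes. All 8 fibroblast markers also fell in each genotype (median -1.08 in LW and -1.96 in MS). In each genotype 3 of 5 satellite cell and myoblast markers (median -0.73 in LW and -1.08 in MS) and 3 of 5 endothelial markers (-0.84 and -1.15) fell as well. Against these, 1 endothelial marker rose in each genotype, and 1 satellite cell and myoblast marker rose in LW, MS and LWMS. The part of these lists in the falls of the imprinted genes was not tested.

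PLAGL1 was split by the boar in its age change. It fell by 1.03 ± 0.103 in MS and by 1.07 ± 0.114 in MSLW, while LW gave -0.06 ± 0.097 (limma adjusted p = 0.645) and LWMS -0.02 ± 0.09997 (adjusted p = 0.885). The test of age by boar gave -1.01 ± 0.103 (adjusted p = 3.02e-09), and that of age by sow gave 0.04 ± 0.102 (adjusted p = 0.851).

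DLK1 and PEG10 fell further with a MS boar, and the main PEG10 probe and 4 of 6 DLK1 probes also with a MS sow. The main DLK1 probe changed by -1.16 in LW, -1.29 in LWMS, -2.27 in MSLW and -3.06 in MS, and its age by sow value missed the threshold (-0.42 ± 0.236, limma adjusted p = 0.283). The changes of PEG10 were -1.08, -2.31, -2.62 and -3.43 in the same order. The age change of MS minus that of LW was -1.90 ± 0.321 for DLK1, -2.35 ± 0.302 for PEG10 and -0.60 ± 0.161 for MEST. In all, 16 probes fell further in MS, against 5.96% of all probes called, 3.40% in that direction. For age by boar 13 probes passed, all lower (5 DLK1, 3 PEG10, 3 SGCE and 2 PLAGL1), against 0.462% of all probes, 0.325% lower. With the slide as a block NDN passed as well (-0.46, limma adjusted p = 0.00455). For age by sow 9 passed, all lower (4 DLK1, 2 PEG10, 2 SGCE and 1 MEST), against 3.04%, 1.88% lower. MAGEL2 passed neither (-0.27 ± 0.132 and -0.25 ± 0.131). The study, whose model had a random sow effect, did list MAGEL2 for the interaction of age and paternal genotype. The reason for this difference was not tested.

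**Figure D3:**
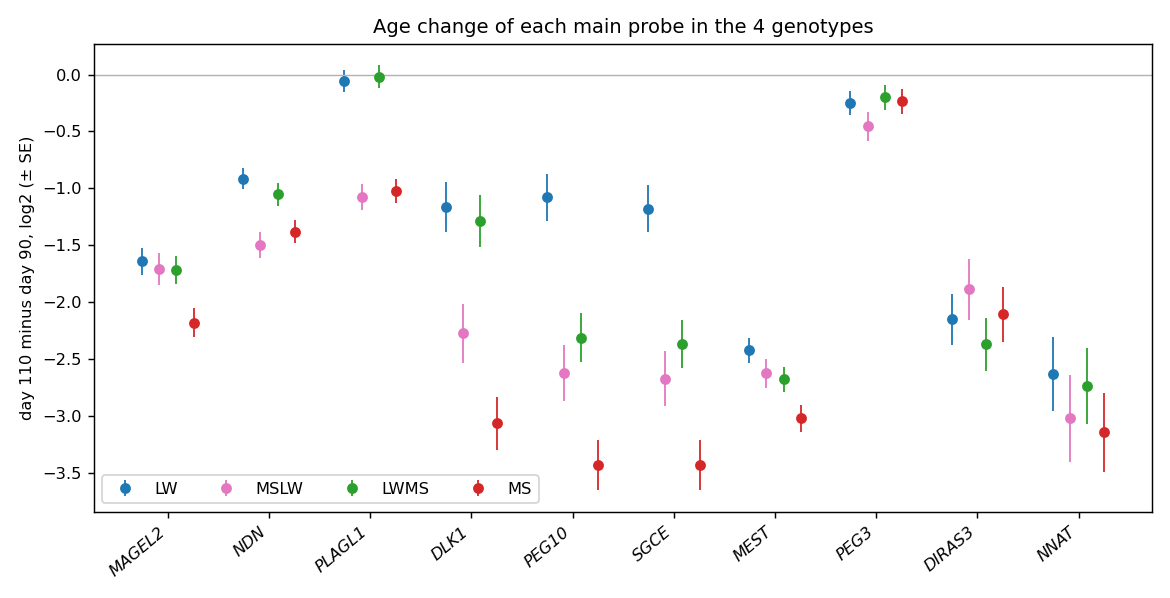
Change of log2 signal from day 90 to day 110 for the main probe of each gene in the 4 genotypes, with SE bars. PLAGL1 stays near 0 in LW and LWMS and lies near -1.0 in MSLW and MS, while MEST lies between -3.02 and -2.42 in all 4.

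The genes whose pattern over fetuses was most like a member were listed by Pearson r after the mean of each age was subtracted. These are descriptions over 61 fetuses that share groups and slides. MAGEL2 was most like EIF2S3, a subunit of a translation initiation factor (r = 0.84), then SCARB2 (0.70) and HNRNPA1 (0.64). The EIF2S3 means at day 90 were 11.95 in LW and 11.90 in LWMS against 12.69 in both MS and MSLW. PLAGL1 was most like MEG3, a noncoding RNA read from the mother's copy beside DLK1 (0.86), DDR1 (0.80) and DLK1 (0.79). The main DLK1 probe was most like MEG3 (0.84) and the SGCE probe with a PEG10 accession (0.73), and the DLK1 probe with the shared bases was most like that SGCE probe (0.93), PEG10 (0.92) and MYH3 (0.91). PEG10 was most like the SGCE probe with its accession (0.98), DLK1 (0.92) and a myosin heavy chain probe (0.87). PEG3 was most like PEG3AS, which the array names as its antisense RNA (0.91 over 60 fetuses), and MEST was most like ASPN (0.86), FKBP10 (0.86) and FKBP14 (0.85).

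Other imprinted genes were taken from lists of 20 gene names known as read from the father's copy and 25 from the mother's. Of these, 9 (26 probes) and 16 (36 probes) were measured. IGF2R and M6P/IGF2R, which name the same gene, were counted apart, as were IGF2 and INS-IGF2. Whether each is imprinted in this muscle was not measured. No probe of either list passed between the crosses at day 90 (limma, with 2 and 0 at an unadjusted p under 0.05). At day 110, 6 paternal-list probes were lower in MSLW and none was higher, against 0.370% and 0.547% of all probes. No maternal-list probe passed (8 at an unadjusted p under 0.05). By main probe, 1 of the 9 paternal-list names passed, which was INS-IGF2. The 6 were 5 of 9 probes of IGF2, the fetal growth factor, with differences from -0.77 to -0.45, and a probe named INS-IGF2 (-0.54 ± 0.097, limma adjusted p = 0.000299). The brightest IGF2 probe gave -0.13 ± 0.062 (adjusted p = 0.304), with group means from 17.01 to 17.43.

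All 9 IGF2 probes were lower with a MS boar at day 110 in both kinds of sow, the brightest by -0.28 ± 0.061 and -0.27 ± 0.056. Of all probes, 2.57% were called lower in LW sows and 2.97% in MS sows. For the brightest probe both calls were lost with scaling to the 75th percentile (-0.05 and -0.08, limma adjusted p = 0.714 and 0.573). The one in LW sows was also lost with the median signal (adjusted p = 0.0197), the deposited values (0.0194) and normexp (0.0140). MEG3 was lower by -1.28 ± 0.184 and -0.96 ± 0.171 in the same contrasts and differed between the crosses by -0.57 ± 0.188 (limma adjusted p = 0.0888). H19, the maternal-copy RNA beside IGF2, gave -0.01 ± 0.092 between the crosses at day 110. IGF2R, the receptor that clears IGF2, was lower with a MS boar in LW sows (-0.51 ± 0.089) and gave -0.22 ± 0.083 in MS sows. None of the 21 probes of GNAS, a G protein subunit with transcripts of either origin, passed between the crosses in limma (2 and 0 at an unadjusted p under 0.05 at day 90 and day 110). SLC38A4, an amino acid transporter, had day 110 means of 8.78 in LW, 9.89 in LWMS, 9.91 in MSLW and 10.94 in MS, and the crosses differed by 0.02 ± 0.248.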

How the data were processed

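RNA of each of 61 muscles was hybridized to a 1-colour Agilent array of 60-base probes. The authors deposited scanner files with the intensity per spot (Agilent Feature Extraction 10.10.1.1) and a table of quantile-normalized log2 values of 44368 spots, used here as an alternative. From the deposited background-corrected intensity, controls were left out, spots marked non-uniform (4 to 802 per array) set missing, and values log2 transformed, quantile normalized and averaged per probe. A probe was kept if, in 1 or more groups, the software's mark for a signal above background was set on 80% of the arrays or more. The 8 groups were fitted with limma 3.58.1 in R 4.3.3, with moderated two-sided tests adjusted by Benjamini-Hochberg over all 42436 kept probes and a threshold of 0.01. Age by boar and age by sow came from a model of age, sow breed, boar breed and each pairwise interaction. The study's model had a random sow effect, which was not used, since the labels do not give the sow. Differences are on the log2 scale, with SE. The fit was tested on simulated data.

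The members and lists were chosen with earlier results of these data known. Every member was named, with its brightest kept probe as main probe, and second probes of DLK1 and SGCE were chosen after their values were seen. Of the other imprinted genes, those called between the crosses and IGF2, MEG3, H19, IGF2R and GNAS were named, and SLC38A4 was added after its values were seen. Alternatives changed the signal, background correction, scaling, filter, slide block, moderation, non-uniform spots and samples. No genome was used, so probes have no coordinates here. The number of arrays limits the precision, and signals near background limit DIRAS3, NNAT and the second MAGEL2 probe.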

Additional observations from a re-analysis of the deposited data

Results flagged for a closer look

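In 4 of 80 groups of fetuses, 1 fetus lay far from the others by Dixon's criterion, which chance does in about 1 group in 20, and all 4 were LW at day 110. Replicate 9 was the lowest for PEG3 (8.999, next 9.49), PEG10 (13.79, next 15.26) and the SGCE probe with a PEG10 accession (12.43, next 13.69), and replicate 2 for NDN (9.29, next 9.77). Without replicate 9, an alternative chosen after seeing the data, 18 member probes were called for the boar in LW sows at day 110, 24 for the mean boar effect, 19 for the mean sow effect, 24 between the purebreds, 15 for the age change of MS minus LW, 14 for age by boar and 11 for age by sow. The age change of MEST then missed the threshold (limma adjusted p = 0.0102), and the mean boar effect of DIRAS3 passed it (0.61, adjusted p = 0.00927).

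Tests of a difference between effects passed for 12 results. The difference between the crosses changed with age for PLAGL1 (-1.06). The age change of MS less that of LW was -1.90 for DLK1, -2.35 for PEG10, -0.60 for MEST, -0.97 for PLAGL1 and -2.25 for SGCE. The age change with a MS instead of a LW boar differed by -1.46 for DLK1, -1.32 for PEG10, -1.01 for PLAGL1 and -1.27 for SGCE. The age change with a MS instead of a LW sow differed by -1.04 for PEG10 and -0.99 for SGCE. The SGCE values are those of the probe with a PEG10 accession, and the next SGCE probe gave -0.74 for MS less LW, -0.39 for the boar and -0.35 for the sow.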

How the results depend on the processing

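Over the 10 main probes and 20 comparisons, 2310 values were recomputed under alternatives, of which 2244 kept their side of the threshold, 44 lost the call and 22 gained it. The sign differed from the reported one in 41, all of them values not called in either setting. The counts of called member probes that moved by over 1.5 times were those of the crosses at day 110 (3 in place of 5 among the 21 probes well above background on all arrays), of the change of the crosses with age (1 in place of 2 with crossbred fetuses only), of the boar in MS sows at day 90 (1 in place of 2 with the same filter) and of the mean sow effect at day 90 (1 in the report, 4 with the median signal, 4 with the deposited values, 5 with normexp, 2 with the filter on all arrays and 2 with the slide as a block). With the filter on all arrays fewer member probes were tested, and for the others the cause was not tested.

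Leaving out each MSLW fetus of day 110 in turn gave 4 to 5 calls for the crosses at day 110, 2 to 2 for their change with age, 17 to 19 for the boar in LW sows, 19 to 22 for the mean boar effect, 16 to 19 for the mean sow effect, 28 for age in MSLW, 12 to 14 for age by boar and 7 to 9 for age by sow. Leaving out LW replicate 9 of day 110 gave 24 calls for the mean boar effect, 11 for age by sow, 24 between the purebreds at day 110, 24 for age in LW and 15 for the age change of MS minus LW. MEST and NNAT passed for the mean boar effect at day 110 (adjusted p = 0.00721 and 0.00766) and lost the call in 8 alternatives each. Pairing by replicate number was not possible because the labels give none that groups share. Groups do share slides, and the slide as a block changed the call in 5 of 200 values of main probes.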
